A study of Mus musculus with 24 samples.

Results

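The SNARE genes of membrane fusion described here are Vamp1, Vamp2, Vamp3, Snap25, Snap47, Stx1a, Stx3 and Nsf. These 8 genes were chosen by name, with earlier results of these data known, so their calls are descriptive. They were found by symbol among 14922 genes measured at 1 week and 15920 genes measured at 5 weeks after blast-mediated traumatic brain injury (bTBI). All 8 were present in both tables, which share 14455 genes. RNA was sequenced from 24 retinas of adult male C57BL/6J mice in 4 groups of 6, namely bTBI and sham retinas at 1 week (8 days by the sample labels) and bTBI and sham retinas at 5 weeks. The left side of the head of each bTBI mouse was turned to a blast wave inside a closed chamber under ketamine and xylazine anesthesia, with yohimbine to reverse the xylazine and buprenorphine after recovery, and sham mice were handled in the same way without the blast. No group carried a transgene. The RNA kit differed by time, RNeasy Plus Mini for the retinas of 1 week and RNeasy Mini for those of 5 weeks, so kit and time cannot be told apart in levels, while each time has sham retinas of its own.

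SNARE proteins pull a vesicle against its target membrane by zipping into a bundle of helices. The vesicle side is given by a synaptobrevin (VAMP1, VAMP2, or VAMP3 outside neurons), and the plasma membrane side by a syntaxin together with SNAP-25. NSF, an ATPase, takes the used bundle apart so that its parts can act again. In the retina the conventional synapses of amacrine cells use syntaxin 1, whereas the ribbon synapses of photoreceptors and bipolar cells use syntaxin 3. Retinal ganglion cells (RGCs) have their release sites in the brain, so that the retina holds their cell bodies and mRNA but not their terminals.

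The labels name RGCs as the cell type, while the methods describe whole retina, and the summed level of 8 rod markers lay between 70749 and 91352 CPM (reads of a gene scaled to the size of the library) in the retinas of 1 week. In bulk retina fewer cells of a type and less RNA per cell cannot be told apart. At 1 week, 2 bTBI retinas (replicates 5 and 6) held lens transcripts at 4305 and 7932 CPM over 13 lens markers, against at most 760.2 CPM in sham retinas, and bTBI replicate 3 held 2531 CPM of the oligodendrocyte gene Mbp, against at most 42.0 CPM in sham retinas. The bTBI retina of replicate 2 at 1 week lay closest to sham for Vamp1, Snap25 and the RGC markers. Low values of a retina were whole multiples (within 0.01) of its own step, taken as the value of 1 read, and the read totals inferred from these steps ranged from 14301989 to 25158638.

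Vamp1 and Vamp2 encode closely related proteins, so their sequences are shown to let a reader judge whether 75-base reads tell them apart. Vamp1 (ENSMUSG00000030337.16) lies on chr6:125215551-125245964 (plus strand, GRCm38) and Vamp2 (ENSMUSG00000020894.16) on chr11:69088490-69092384 (plus strand). Their coding sequences were identical at 77.1% of 349 aligned bases, with no identical run longer than 18 bases. The 90 coding bases in which they are most alike run from base 103 of the Vamp1 coding sequence and from base 97 of that of Vamp2, and the 8 bases that differ are in capitals.
Vamp1: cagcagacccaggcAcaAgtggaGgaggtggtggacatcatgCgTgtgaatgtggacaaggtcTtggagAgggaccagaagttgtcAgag
Vamp2: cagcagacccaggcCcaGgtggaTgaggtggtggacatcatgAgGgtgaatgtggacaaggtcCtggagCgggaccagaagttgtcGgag
None of the 10239 words of 75 bases in Vamp1 transcripts and none of the 3913 in Vamp2 transcripts occurred in a transcript of another gene. The same held for Snap25, Snap47, Stx1a, Stx3 and Nsf, whereas 2.49% of the words of Vamp3 were shared with other genes. On the opposite strand, Jmjd4 overlaps 11.6% of the exon bases of Snap47. Whether the counting used strand is not given in the sources used here, so those overlapping reads are uncertain.

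Levels between genes were compared as CPM per kilobase of merged exon. In the bTBI retinas of 1 week, Vamp2 averaged 244.2 ± 16.4 CPM per kilobase, Snap25 196.5 ± 16.4, Stx3 123.1 ± 3.59, Nsf 96.2 ± 4.41, Snap47 68.4 ± 1.06, Vamp3 9.08 ± 1.00, Vamp1 4.79 ± 1.54 and Stx1a 3.39 ± 0.467 (SD, n = 6 each). In the sham retinas of 1 week, Vamp2 averaged 256.8 ± 15.1 CPM per kilobase, Snap25 247.5 ± 13.5, Stx3 120.7 ± 5.67, Nsf 102.2 ± 5.59, Snap47 75.2 ± 1.51, Vamp1 10.3 ± 0.784, Vamp3 7.52 ± 0.827 and Stx1a 3.97 ± 0.399 (SD, n = 6 each). The order was thus the same apart from Vamp1 and Vamp3, which changed places. In bTBI retinas Vamp1 (3.30 to 7.54 CPM per kilobase) lay below the lowest value of Vamp3 (8.05) in every case, whereas in sham retinas Vamp1 (9.49 to 11.8) lay above Vamp3 (6.57 to 8.81). Vamp2 and Snap25 overlapped in sham retinas at 233.1 to 279.7 and 227.9 to 263.4 CPM per kilobase and did not overlap in bTBI retinas, where the lowest Vamp2 value was 228.6 and the highest Snap25 value 227.0. At 5 weeks Vamp1 lay at 7.69 to 8.96 CPM per kilobase in bTBI retinas, below Vamp3 at 11.5 to 12.6, whereas in sham retinas Vamp1 (11.4 to 12.8) and Vamp3 (10.98 to 11.56) overlapped. The merged exons of Vamp1 are long (10167 bases against 2889 for Vamp3), and a gene that uses only part of its exons is understated on this scale. Vamp1 and Vamp3 change places only after this division by exon length. In CPM at 1 week, Vamp1 averaged 48.7 and Vamp3 26.2 in bTBI retinas, against 104.6 and 21.7 in sham retinas.

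**Figure D1:**
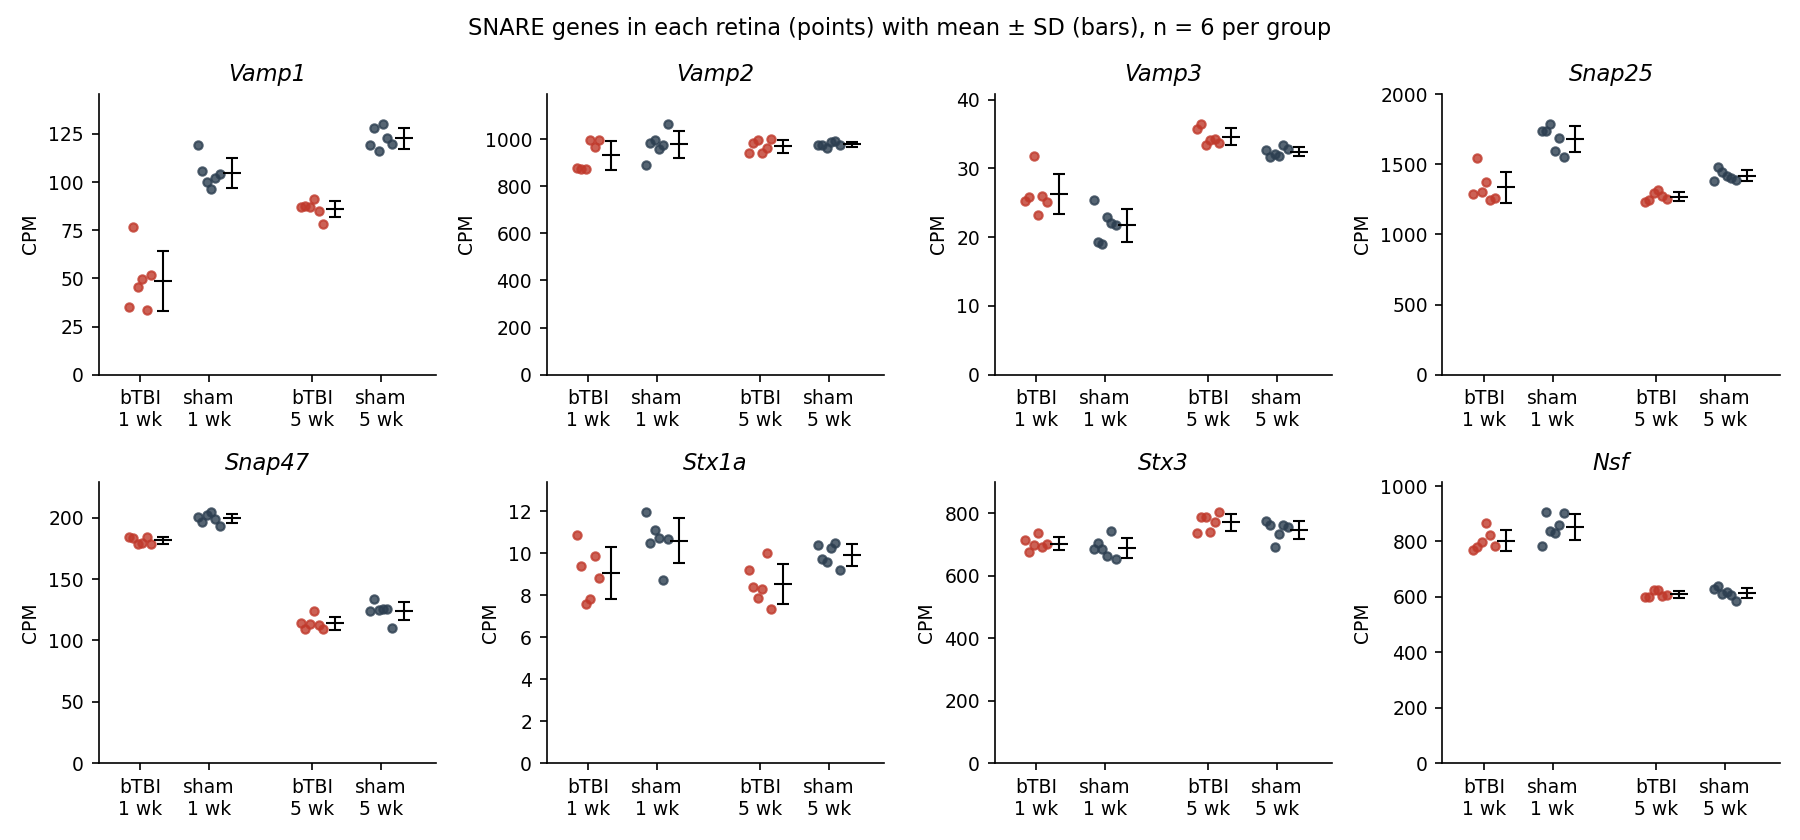
CPM of the 8 SNARE genes in each retina (points), with the mean and SD of each group (n = 6) beside them, bTBI left of sham at 1 week and at 5 weeks. Every bTBI point of Vamp1 and Snap25 lies below every sham point of the same time, whereas the points of Vamp2, Stx3 and Nsf overlap between the groups.

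Of the 8 genes, Vamp1 and Snap25 were lower in bTBI retinas at both times, and none was higher past the threshold of an adjusted p under 0.005 (limma on log2(CPM + 1), Benjamini-Hochberg adjustment over each whole table). Vamp1 was at 46.5% of the sham mean at 1 week and 70.0% at 5 weeks, and Snap25 at 79.4% and 89.5%. At 1 week 0.985% of all genes were called lower and 1.27% higher, 2.25% in either direction, and at 5 weeks 0.823% were called lower and 0.0126% higher, 0.835% in either direction. The median log2 fold change of the 8 genes was -0.11 at 1 week and -0.07 at 5 weeks, against -0.0002 and 0.001 over all genes tested. The other 6 genes missed the threshold at both times. At 1 week 3 of the 8 (Vamp1, Snap25 and Snap47) had every bTBI value below every sham value, as had 2.25% of all genes, and at 5 weeks 2 of the 8 (Vamp1 and Snap25), as had 1.75% of all genes. None of the 8 had every bTBI value above every sham value, as 1.59% of all genes had at 1 week and 0.239% at 5 weeks.

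Vamp1, the synaptobrevin of motor nerve terminals and of many brainstem and spinal neurons, had the largest change of the 8. At 1 week its lowest, median and highest values were 33.6, 47.6 and 76.6 CPM in bTBI retinas, against 96.5, 103.1 and 119.5 CPM in sham retinas. The groups did not overlap, and among bTBI retinas replicate 2 stood highest, the other 5 lying at or below 51.6 CPM. The means were 48.7 ± 15.6 CPM in bTBI retinas and 104.6 ± 7.97 CPM in sham retinas (SD, n = 6 each), a log2 fold change of -1.14 (SE 0.148, adjusted p = 0.000334 by limma). Of the 14922 genes only 2 had a lower log2 fold change at that time. Without bTBI replicate 2 it was -1.28 (adjusted p = 2.46e-06), and without the lens-rich replicates 5 and 6 it was -1.06 (adjusted p = 0.00253).

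At 5 weeks Vamp1 lay at 78.1, 86.8 and 91.0 CPM (lowest, median, highest) in bTBI retinas, against 116.1, 121.1 and 130.3 CPM in sham retinas. The bTBI retinas were close to each other, and again no value overlapped those of sham retinas. The means were 85.9 ± 4.29 CPM in bTBI retinas and 122.6 ± 5.48 CPM in sham retinas (SD, n = 6 each), with a log2 fold change of -0.51 (SE 0.039, adjusted p = 2.34e-07 by limma). In this fit no other of the 15920 genes had a smaller p at 5 weeks, while 44 had a lower log2 fold change. That first rank depended on the method. In the edgeR comparison of the paper, Cplx1 and the neurofilament gene Nefm had smaller p values than Vamp1. When all 24 retinas were fitted together, so that the wider spread of 1 week entered the error, the adjusted p at 5 weeks was 0.0128 and Vamp1 was not called.

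The change of Vamp1 was larger at 1 week, but the difference between the times (0.63 on the log2 scale, 5 weeks minus 1 week, SE 0.161) did not pass the threshold, with an adjusted p of 0.0632 over 14455 genes (limma, 24 retinas). It passed when bTBI replicate 2 of 1 week was left out (0.77, adjusted p = 0.000131). In the other 23 omissions of 1 retina it did not pass, with an adjusted p of up to 0.109. Without the lens-rich bTBI retinas of 1 week it did not pass either (0.55, adjusted p = 0.139). None of the 8 genes was called for a difference between the times with every retina in the fit, where 0.104% of all genes were called. In that limma fit 2 of the 8, Vamp1 and Snap25, had an unadjusted p under 0.05, as had 1228 of all 14455 genes.

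Snap25 (ENSMUSG00000027273.13, chr2:136713453-136782428, plus strand) encodes the plasma membrane SNARE that gives the bundle a pair of its helices. At 1 week its lowest, median and highest values were 1246, 1294 and 1542 CPM in bTBI retinas, against 1548, 1709 and 1789 CPM in sham retinas. The groups did not overlap, though bTBI replicate 2 came just below the lowest sham retina. The log2 fold change was -0.33 (SE 0.060, adjusted p = 0.00273 by limma). At 5 weeks Snap25 lay at 1233, 1262 and 1312 CPM in bTBI retinas, against 1383, 1406 and 1480 CPM in sham retinas, a log2 fold change of -0.16 (SE 0.028, adjusted p = 0.00216). These calls are close to the threshold. With 1 retina left out at a time, Snap25 lost the call at 1 week in 9 of 12 cases (highest adjusted p 0.00980, without sham replicate 3) and kept it without bTBI replicate 2, sham replicate 4 or sham replicate 6. At 5 weeks it lost the call in 7 of 12 cases (highest 0.00974, without sham replicate 2) and kept it without bTBI replicates 3 or 4 or sham replicates 1, 3 or 6. Without the lens-rich bTBI retinas the adjusted p at 1 week was 0.0306, and in the fit of all 24 retinas that at 5 weeks was 0.0907. The log2 fold change stayed between -0.38 and -0.29 at 1 week and between -0.17 and -0.15 at 5 weeks under all of these settings.

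Snap47 (ENSMUSG00000009894.15, chr11:59407134-59451186, minus strand) encodes a relative of SNAP-25 that lacks its membrane anchor. At 1 week it lay at 178.3, 181.4 and 184.5 CPM (lowest, median, highest) in bTBI retinas, against 193.1, 199.9 and 204.5 CPM in sham retinas. Its groups did not overlap, but the log2 fold change of -0.13 (SE 0.034) had an adjusted p of 0.0258 and was not called. At 5 weeks the medians were 113.0 CPM in bTBI retinas and 125.0 CPM in sham retinas, the groups overlapped, and bTBI over sham was -0.12 on the log2 scale (adjusted p = 0.202).

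**Figure D2:**
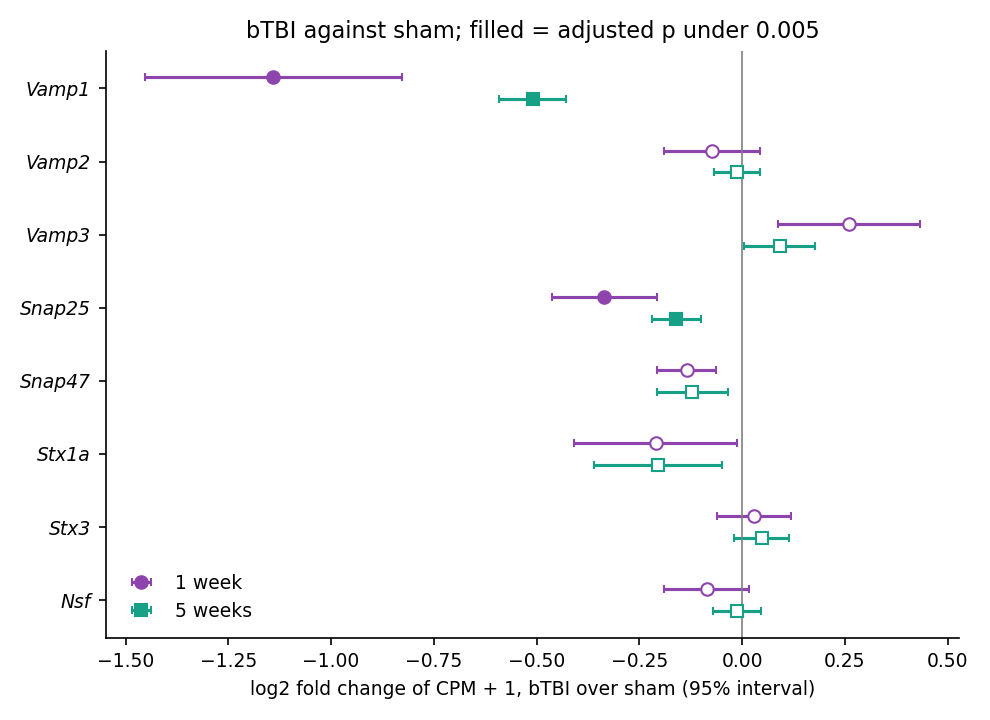
Log2 fold change of CPM + 1, bTBI over sham, with its 95% interval from limma for each SNARE gene at 1 week (circles) and 5 weeks (squares). Filled symbols, those of Vamp1 and Snap25 at both times, have an adjusted p under 0.005, and the intervals of Vamp2, Stx3 and Nsf include 0.

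Vamp2, the synaptobrevin of most central synapses, did not share the change of Vamp1. Its lowest, median and highest values at 1 week were 870.8, 920.8 and 997.5 CPM in bTBI retinas, against 887.7, 980.7 and 1065 CPM in sham retinas, and at 5 weeks 938.8, 971.3 and 998.9 CPM in bTBI retinas, against 961.7, 975.1 and 993.5 CPM in sham retinas. The groups overlapped at both times. The log2 fold change was -0.07 at 1 week (95% interval -0.19 to 0.04, adjusted p = 0.582) and -0.01 at 5 weeks (-0.07 to 0.04, adjusted p = 0.936), and both intervals lie above the log2 fold change of Vamp1 at the same time. Vamp3 (ENSMUSG00000028955.3, chr4:151047300-151057963, minus strand) encodes cellubrevin, the synaptobrevin of endosomal recycling in most cells, and was at 120.7% of the sham mean at 1 week and 106.8% at 5 weeks. Its values at 1 week were 23.3, 25.5 and 31.8 CPM in bTBI retinas, against 19.0, 21.9 and 25.5 CPM in sham retinas, and neither its log2 fold change of 0.26 at 1 week (adjusted p = 0.0763) nor that of 0.09 at 5 weeks (adjusted p = 0.410) was called. The highest bTBI value of Vamp3 at 1 week was that of replicate 3, the retina rich in Mbp, and without it the log2 fold change was lowest (0.21).

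The contrast of Vamp1 with Vamp2 was then read within each retina, where the scaling of the library cancels. In CPM per kilobase, Vamp1 was 1.30%, 1.90% and 3.30% of Vamp2 (lowest, median, highest) in bTBI retinas at 1 week, against 3.66%, 3.85% and 5.04% in sham retinas. At 5 weeks it was 2.93%, 3.33% and 3.63% in bTBI retinas, against 4.52%, 4.61% and 4.95% in sham retinas. All 6 bTBI retinas lay below all 6 sham retinas at both times. The mean log2 ratio differed (bTBI minus sham) by -1.07 at 1 week and by -0.50 at 5 weeks, each with p = 0.00216 in a two-sided exact permutation test over retinas, the smallest p that 6 against 6 retinas allow, and 0.00325 after Benjamini-Hochberg adjustment over the 6 ratio tests. The genes of these ratios were chosen with earlier results of these data known, so the p values describe the contrasts and are not independent tests.

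The syntaxins are the plasma membrane partners. Stx3 (ENSMUSG00000041488.16, chr19:11775118-11819403, minus strand), the syntaxin of ribbon synapses, lay at 677.1, 699.4 and 736.4 CPM (lowest, median, highest) in bTBI retinas at 1 week, against 653.1, 685.8 and 744.7 CPM in sham retinas. At 5 weeks it lay at 736.0, 780.0 and 803.7 CPM in bTBI retinas, against 693.1, 758.5 and 774.6 CPM in sham retinas. The groups overlapped at both times, and the log2 fold changes were 0.03 (95% interval -0.06 to 0.12, adjusted p = 0.821) and 0.05 (-0.02 to 0.11, adjusted p = 0.671). Stx1a (ENSMUSG00000007207.10, chr5:135023482-135051100, plus strand), a syntaxin of conventional synapses, was the lowest of the 8 genes, at 7.60, 9.09 and 10.9 CPM in bTBI retinas at 1 week, against 8.71, 10.7 and 11.9 CPM in sham retinas. It stood at 85.4% of the sham mean at 1 week and 85.8% at 5 weeks, with log2 fold changes of -0.21 (95% interval -0.41 to -0.01, adjusted p = 0.250) and -0.20 (-0.36 to -0.05, adjusted p = 0.255) that were not called. The interval of Stx1a was wider than that of Stx3 at both times.

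Within each retina, Stx3 was 30.7, 35.4 and 44.0 times Stx1a in CPM per kilobase (lowest, median, highest) in bTBI retinas at 1 week, against 26.8, 28.9 and 39.9 times in sham retinas. At 5 weeks it was 36.1, 42.8 and 51.2 times Stx1a in bTBI retinas, against 33.5, 34.4 and 38.5 times in sham retinas. The groups overlapped at both times, though the bTBI median lay above the sham median. The mean log2 ratio differed (bTBI minus sham) by 0.24 at 1 week (exact permutation p = 0.0606, adjusted 0.0606) and by 0.25 at 5 weeks (exact permutation p = 0.0108, adjusted 0.0130), so that the ratio was called higher at 5 weeks and not at 1 week, a difference between the times that was not tested. At 1 week it passed 0.05 only when bTBI replicate 1 (0.28, exact permutation p = 0.0433) or sham replicate 5 (0.31, exact permutation p = 0.00866) was left out. At 5 weeks it held in each of the 12 omissions of 1 retina, with differences of 0.20 to 0.29.

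**Figure D3:**
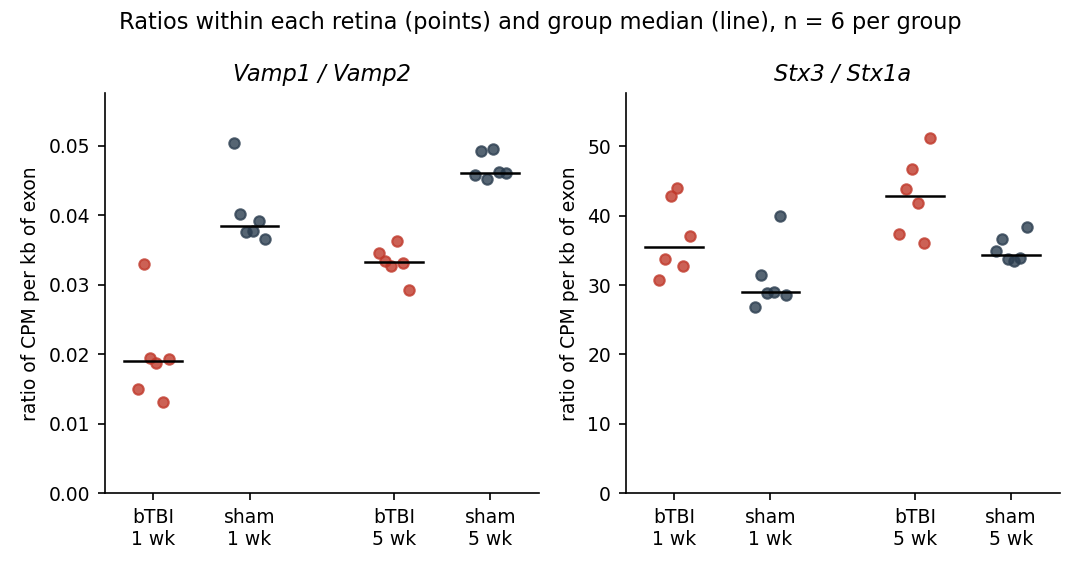
Ratio of CPM per kilobase of merged exon within each retina (points) and the median of each group (line) for Vamp1 over Vamp2 and Stx3 over Stx1a, bTBI left of sham at each time (n = 6 per group). Vamp1 over Vamp2 is lower in every bTBI retina than in any sham retina of the same time, while Stx3 over Stx1a overlaps between the groups.

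Nsf (ENSMUSG00000034187.18, chr11:103821782-103954056, minus strand), the ATPase that recycles the SNAREs after fusion, lay at 767.5, 790.0 and 867.2 CPM (lowest, median, highest) in bTBI retinas at 1 week, against 782.8, 848.3 and 905.8 CPM in sham retinas. At the later time its values were 597.8, 605.1 and 625.0 CPM in bTBI retinas, against 585.0, 614.1 and 637.7 CPM in sham retinas. The groups overlapped at both times. Its log2 fold changes were -0.09 (95% interval -0.19 to 0.02, adjusted p = 0.403) and -0.01 (-0.07 to 0.05, adjusted p = 0.938).

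RGC markers were lower at the same times as Vamp1 and Snap25. Of 12 RGC markers, 9 were called lower at 1 week and 11 at 5 weeks, with a median log2 fold change of -0.54 and -0.66, and none was at 0 in any retina. Their summed level was 874.0 to 1439 CPM in bTBI retinas, against 1611 to 1930 CPM in sham retinas at 1 week, and 491.3 to 751.5 CPM in bTBI retinas, against 908.4 to 994.3 CPM in sham retinas at 5 weeks. In bTBI retinas of 1 week, replicate 2 was highest and replicate 5 lowest in the RGC sum (83.4% and 50.7% of the sham mean), in Vamp1 (73.2% and 32.1%) and in Snap25 (91.7% and 74.1%). Vamp1 was further below sham than the RGC sum in each of the 6 bTBI retinas at 1 week. At 5 weeks this was not so, Vamp1 lying at 63.7% to 74.2% and the RGC sum at 51.0% to 78.1% of the sham mean. The RGC sum was then further below sham than Vamp1 in every bTBI retina except replicate 4 (78.1% against 74.2%). No marker of rods, cones, bipolar, amacrine or horizontal cells was called at either time, and the summed levels of these lists overlapped between the groups. Uncalled markers were not all level with sham. Cone markers lay between -0.42 and 0.12 in log2 fold change at 1 week, with Arr3 lowest (74.3% of the sham mean, and 100.1% at 5 weeks). None of 7 markers of Müller glia was called at either time, and they lay between -0.23 and 0.29 at 1 week. At 1 week 7 of 9 microglial markers and 5 of 7 markers of reactive macroglia were called higher, and none at 5 weeks. Microglial sums at 1 week were 198.7 to 549.2 CPM in bTBI retinas, against 114.7 to 177.0 CPM in sham retinas. Those of reactive macroglia were 367.3 to 1477 CPM in bTBI retinas, against 221.5 to 385.3 CPM in sham retinas. Both bTBI maxima were those of replicate 3, the retina rich in Mbp, and the next highest bTBI sums were 376.6 and 663.7 CPM. The part of these cell types in the values of the SNARE genes was not tested.

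**Figure D4:**
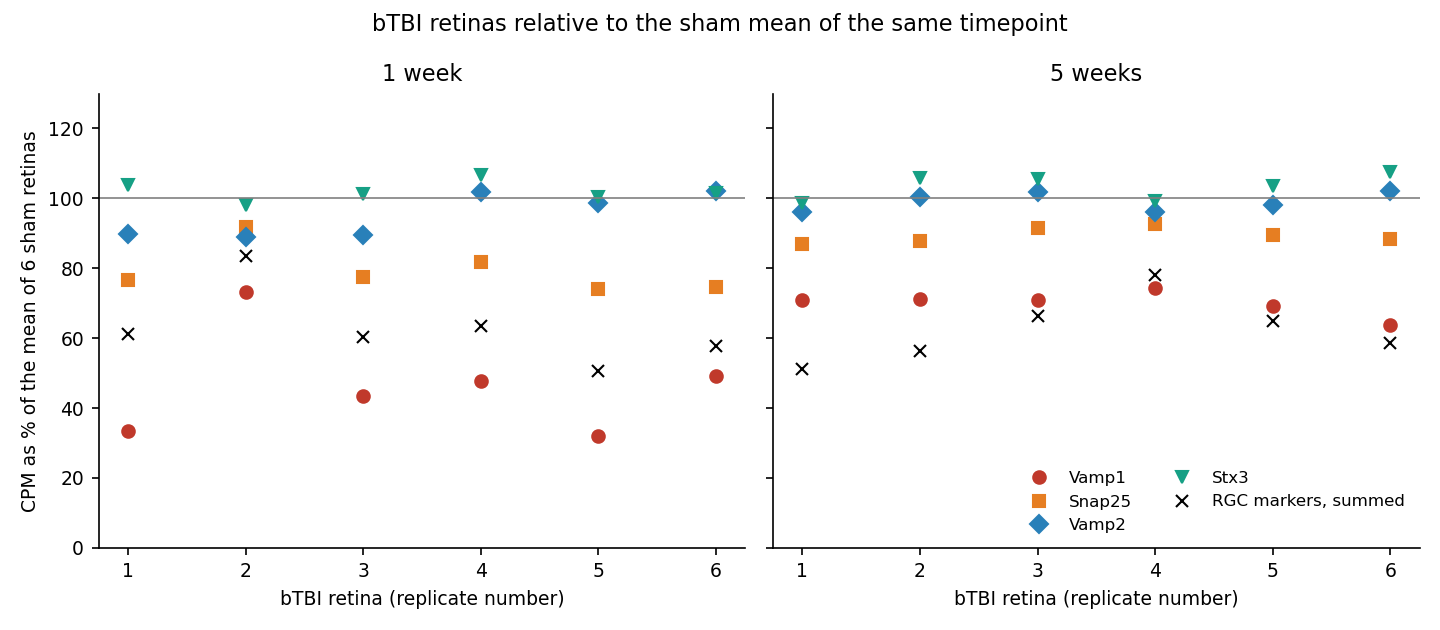
CPM of Vamp1, Snap25, Vamp2 and Stx3 and the summed CPM of 12 RGC markers (crosses) in each bTBI retina, as a percentage of the mean of the 6 sham retinas of the same time (grey line at 100). At 1 week Vamp1 lies at 32.1% to 73.2% with replicate 2 highest, and at 5 weeks at 63.7% to 74.2%, while Vamp2 and Stx3 stay between 89.0% and 107.6%.

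The genes whose pattern over the 24 retinas was most like that of Vamp1, by the root mean square difference of log2(CPM + 1) from the sham mean of each time among 9609 genes, were Nefh (0.198), Rgs4 (0.232), Rasgrp2 (0.234), Cplx1 (0.237) and Scn1a (0.261). Nefh encodes the heavy neurofilament chain and is among the 12 RGC markers. It was at 52.4% of sham at 1 week and 62.2% at 5 weeks. The measure is a description, and it holds the difference between bTBI and sham itself.

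Other genes of the fusion machinery were read in 5 lists. Of further SNAREs of the plasma membrane and vesicles, 7 are given here, and none was called at either time. They lay between -0.09 and 0.21 in log2 fold change at 1 week and between -0.11 and 0.04 at 5 weeks. None of 17 SNAREs of the Golgi, ER and endosomes was called at either time, 1 having an unadjusted p under 0.05 at 1 week and 0 at 5 weeks. The smallest p among them were those of Stx16, a SNARE of traffic from endosomes to the Golgi (-0.14, adjusted p = 0.224 at 1 week), and Stx5a, of traffic from the ER to the Golgi (0.11, adjusted p = 0.320 at 1 week). None of the 15 assembly and disassembly factors at 1 week and 16 at 5 weeks was called. At each time 3 of them had an unadjusted p under 0.05 by limma. Over all genes this was so for 2575 of 14922 at 1 week and 1739 of 15920 at 5 weeks, the background for both lists. Napb, which encodes the neuronal partner that brings NSF to the SNARE bundle, had log2 fold changes of -0.18 at 1 week and -0.04 at 5 weeks, the first with an adjusted p of 0.0226. Unc13a, which encodes a priming factor of neurotransmitter vesicles, had -0.27 at 1 week and -0.06 at 5 weeks, the first with an adjusted p of 0.0526.

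Of 11 calcium sensors and complexins, which act directly on the SNARE bundle, 3 were called lower at 1 week and 2 at 5 weeks. Cplx1, a complexin of conventional synapses, lay at 81.2, 105.1 and 154.4 CPM (lowest, median, highest) in bTBI retinas at 1 week, against 183.1, 196.5 and 242.2 CPM in sham retinas, and at 52.1, 62.2 and 77.7 CPM in bTBI retinas at 5 weeks, against 101.2, 111.5 and 122.0 CPM in sham retinas. No bTBI retina reached a sham retina, and the log2 fold changes were -0.92 (adjusted p = 0.000284 by limma) and -0.83 (adjusted p = 3.29e-07). Cplx2, the other complexin of conventional synapses, was called at both times (-0.36, adjusted p = 0.000356, and -0.24, adjusted p = 0.00383), though at 5 weeks it kept the call only without bTBI replicate 4 or sham replicates 1, 5 or 6 when 1 retina was left out. Syt2, a fast calcium sensor of vesicle fusion, was called at 1 week (-0.40, adjusted p = 0.000609) and not at 5 weeks (-0.32, adjusted p = 0.00511). At 5 weeks it was called in 5 of 9 other settings, among them the looser threshold of 0.05 on the same fit. It was also called at 5 weeks without bTBI replicate 4 (adjusted p = 0.000160). At 1 week Syt2 missed the threshold without the lens-rich bTBI retinas (adjusted p = 0.00551). The complexins of ribbon synapses, Cplx3 (-0.08, adjusted p = 0.593) and Cplx4 (0.13, adjusted p = 0.0742), were named after their values were seen and were not called at 1 week. Every bTBI value of Cplx4 lay above every sham value at 1 week (109.4% of the sham mean), as in 1.59% of all genes. At 5 weeks Cplx3 was at 99.2% and Cplx4 at 104.6% of the sham mean, and the groups overlapped for both.

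Of 14 ribbon synapse genes, Rab3a, a small GTPase of synaptic vesicles that conventional synapses use as well, was called lower at 1 week (-0.22, adjusted p = 0.00462), and none at 5 weeks (Rab3a -0.13, adjusted p = 0.0137). Its call at 1 week was lost in 11 of 12 omissions of 1 retina, all but that of bTBI replicate 1, with an adjusted p of up to 0.0149 (without sham replicate 3). The median log2 fold change of the ribbon list was -0.06 at 1 week and 0.01 at 5 weeks. None of the genes given from these 5 lists was called for a difference between the times.

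**Figure D5:**
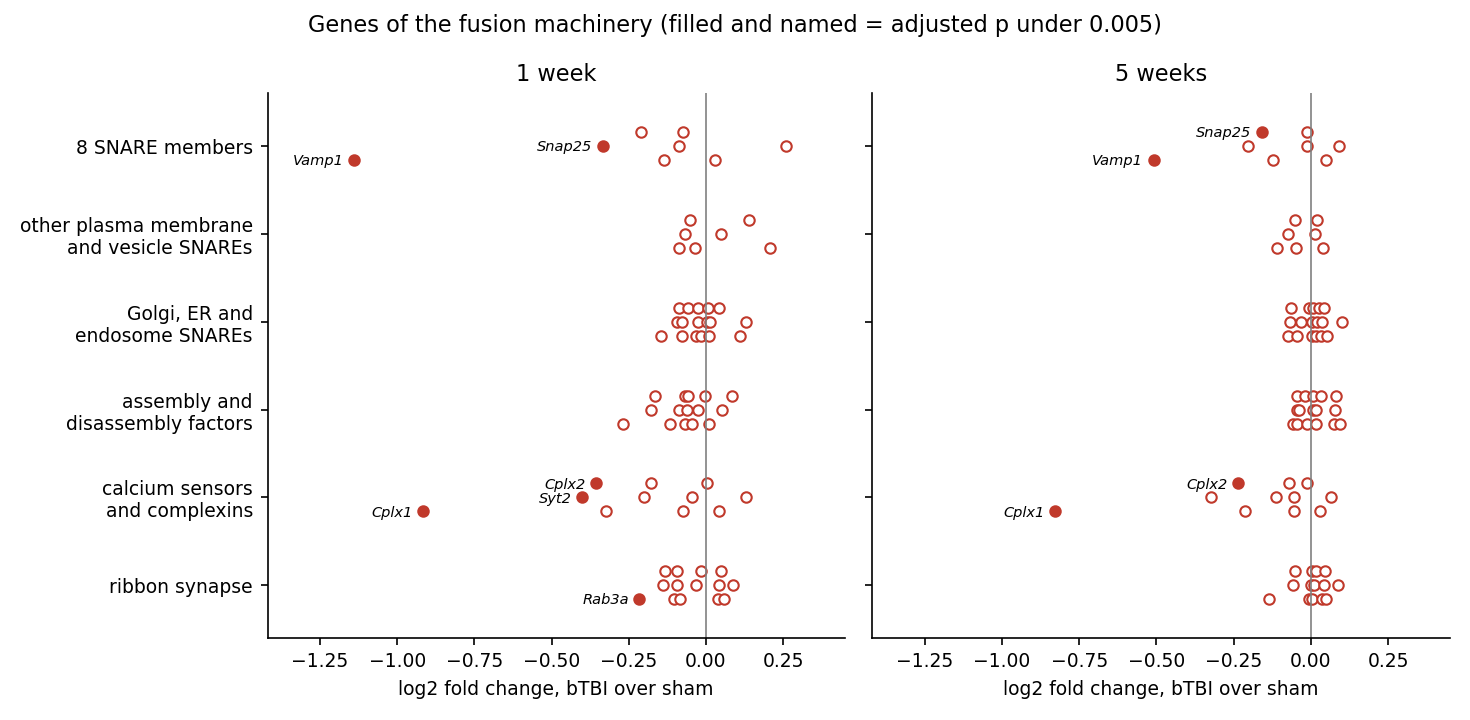
Log2 fold change of CPM + 1, bTBI over sham, of the genes given here in 6 lists of the fusion machinery at 1 week (left) and 5 weeks (right), spread vertically within a list for legibility. Filled and named points passed an adjusted p of 0.005, all of them below 0, and Vamp1 and Cplx1 lie furthest from 0 at both times.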

How the data were processed

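The authors extracted RNA from whole retinas, made stranded poly(A) libraries, aligned paired 75-base reads with STAR (GRCm38), counted genes with featureCounts and compared groups within each time with edgeR. The deposited signal values are counts relative to the effective size of each library, on the scale of CPM, and the authors had already removed low genes. Symbols were matched for 14907 of 14922 genes at 1 week and 15902 of 15920 at 5 weeks. Values were transformed to log2(CPM + 1), since no raw counts are used here, and compared with limma 3.58.1 in R 4.3.3 (prior variance following the mean), 6 bTBI against 6 sham retinas per time, with Benjamini-Hochberg adjustment over the table and a threshold of 0.005. A fold change on this scale understates that of low genes. The difference between the times was fitted on all 24 retinas. Ratios within a retina were tested by exact permutation over 924 regroupings with a threshold of 0.05 after adjustment over the 6 ratio tests of the design. Each retina is from a separate mouse. Coding sequences, exon lengths and 75-base words came from the GENCODE annotation of GRCm38. The scripts were tested on simulated data.

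The members and gene lists were chosen with earlier results of these data known. Named in full are the 8 genes. Some genes and comparisons of the design are not reported here. Of the other lists of the fusion machinery, each gene called at either time is named, or the 2 with the smallest p where a list has none, and the 5 genes most like Vamp1 with a mean of at least 10 CPM. Marker lists are given as counts and sums. Alternatives were scaling by median of ratios or library totals, a filter of 1 CPM in 6 of 12 retinas, a robust prior, a prior without trend, a single fit of 24 retinas, a pseudocount of 0.1, a threshold of 0.05, a replicate block, and leaving out retinas.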

Additional observations from a re-analysis of the deposited data

Results flagged for a closer look

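In 56 groups of 6 retinas, covering the 8 SNARE genes, 4 further called genes and 2 ratios, 6 groups held a retina that stood apart from the others by Dixon's criterion, where chance flags about 1 in 20. Among the SNARE genes, bTBI replicate 3 of 1 week had 31.8 CPM of Vamp3 against 26.0 CPM in the next retina, and bTBI replicate 4 of 5 weeks had 124.1 CPM of Snap47 against 114.3 CPM in the next. Sham replicate 1 of 1 week had a log2 ratio of Vamp1 to Vamp2 of -2.88, against -3.21 in the next sham retina, which places it further from the bTBI retinas. Cplx1 was highest in bTBI replicate 2 of 1 week (154.4 CPM, next 106.1 CPM) and in sham replicate 1 of 1 week (242.2 CPM, next 202.6 CPM). Cplx2 was highest in bTBI replicate 4 of 5 weeks at 212.7 CPM, against 194.4 CPM in the next.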

How the results depend on the processing

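The direction of every SNARE gene and of both ratios held at both times in each alternative run, and none of these reversed. Vamp1 was called in all 12 single omissions and 10 other settings at 1 week, and in all but the fit of 24 retinas at 5 weeks. At 1 week 336 genes were called, against 685 in the fit of 24 retinas, 907 at a threshold of 0.05, 112 without bTBI replicates 5 and 6, and 189 (without sham replicate 2) to 486 (without bTBI replicate 2) with 1 retina left out. At 5 weeks 133 were called, against 56 with a prior without trend, 75 in the fit of 24 retinas, 326 at 0.05 and 88 (without sham replicate 2) to 163 with 1 retina left out. The difference between the times was called for 15 genes, 9 to 111 with 1 retina left out (111 without bTBI replicate 2 of 1 week, 43 without bTBI replicate 1 of 5 weeks, 31 without sham replicate 4 of 1 week, 9 without bTBI replicate 3 or 5 of 5 weeks). Of the 8 SNARE genes, 2 were called at each time. The number was 1 at 1 week with a prior without trend, with the replicate block and without bTBI replicates 5 and 6, and 1 to 2 with 1 retina left out. At 5 weeks it was 1 with a prior without trend and with the replicate block, 0 in the fit of 24 retinas, and 1 to 2 with 1 retina left out. For the difference between the times it was 0, and 0 to 1 with 1 retina left out. The gene lost was Snap25 except in the fit of 24 retinas, which lost Vamp1 as well. The log2 ratio of Stx3 to Stx1a at 1 week differed by 0.19 to 0.31 with 1 retina left out. Most same-numbered bTBI and sham retinas did not deviate together (correlations of -0.253 to 0.542 at 1 week and -0.113 to 0.152 at 5 weeks). The sham retina of the same number was the best match only for bTBI replicate 1 at 1 week (0.542) and replicate 3 at 5 weeks (0.152). The check thus showed no pairing by number across the retinas. With the replicate block Snap25 had an adjusted p of 0.00509 at 1 week and 0.005001 at 5 weeks, just short of the threshold, 293 and 134 genes were called, and the block moved neither ratio across 0.05. Scaling by median of ratios or library totals moved the median of all genes by under 0.005 on the log2 scale. A count test on reads recovered from the steps of the values was planned and not run. A check that takes the lowest value as 1 read did not accept the recovery, since in most retinas the lowest value was more than 1 step. The read totals given above rest on the same steps and are inferred. The values are already filtered, so low genes were not seen, and Stx1a, at about 10 CPM, had a wider interval than Stx3.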
